A study of Mus musculus with 16 samples.

Results

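Genes of the endoplasmic reticulum (ER) stress pathway were followed in whole brains of adolescent mice that had drunk nicotine, ethanol, both or neither. The 10 genes were taken by name, with no cutoff on a measured value: Hspa5, Hsp90b1, Pdia4, Sdf2l1, Dnajb9, Herpud1, Serp1, Xbp1, Atf4 and Ddit3. Earlier results of these data were known when the genes were chosen. They are 10 of the 24062 genes in the count table, and all 10 were also present in the table of normalized expression. The RNA came from 16 female C57BL/6J mice, an inbred strain, dissected on postnatal day 45, with 4 mice in each of 4 groups. Water-Water (WW) mice drank only water. Nicotine-Water (NW) mice had bottles of 200 µg/ml nicotine for 22 h of each day. Water-Ethanol mice had 20% (v/v) ethanol in limited-access sessions on 4 days, the last one of 4 h ending at dissection. Nicotine-Ethanol (NE) mice had both, and in the NW and NE groups the nicotine bottles were off the cage during that last session. No other fluid was offered while the nicotine or ethanol bottles were on the cage, but each mouse set how much it drank. The dose could thus differ between mice, and 1 brain gave 1 library.

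The ER folds and modifies proteins that are secreted or placed in membranes. When unfolded proteins accumulate there, the sensors Ire1 (Ern1), Perk (Eif2ak3) and Atf6 start the unfolded protein response: Ire1 splices Xbp1 mRNA into the form that encodes an active transcription factor, Perk slows translation and favours that of Atf4, and Atf6 is cut to release its own transcription factor. Together these factors raise the transcription of ER chaperones, folding enzymes and parts of the machinery that returns misfolded proteins to the cytosol for degradation, and lasting stress raises Ddit3 (Chop), which is linked to cell death. In the brain the response is known from ischaemia, neurodegeneration and models of alcohol toxicity.

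XBP1 and ATF6 are known to act through the ER stress response element (ERSE), the letters CCAAT and CCACG separated by any 9 bases, and through the shorter ERSE-II, ATTGG and CCACG separated by 1 base. The promoters shown here are those of the members in which either element was found in the 250 bases before the RefSeq start (build GRCm38.p6), with the matched letters in capitals, and those of the 2 members with the largest differences in nicotine-drinking mice, in which neither was found. All are written 5′ to 3′ on the strand of the gene, and the last base stands next to the start.
Hspa5, chr2:34771840-34772089, plus strand: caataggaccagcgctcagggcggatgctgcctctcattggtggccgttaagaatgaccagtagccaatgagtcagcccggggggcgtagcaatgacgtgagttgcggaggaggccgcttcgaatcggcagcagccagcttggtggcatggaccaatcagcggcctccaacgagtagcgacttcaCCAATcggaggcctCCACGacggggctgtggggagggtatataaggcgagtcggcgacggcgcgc
Hsp90b1, chr10:86705445-86705694, minus strand: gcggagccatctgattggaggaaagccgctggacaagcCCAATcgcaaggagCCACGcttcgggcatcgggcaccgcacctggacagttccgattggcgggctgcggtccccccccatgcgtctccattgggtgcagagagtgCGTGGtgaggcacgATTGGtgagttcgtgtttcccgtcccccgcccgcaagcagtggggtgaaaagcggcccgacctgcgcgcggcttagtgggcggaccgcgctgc
Herpud1, chr8:94386179-94386428, plus strand: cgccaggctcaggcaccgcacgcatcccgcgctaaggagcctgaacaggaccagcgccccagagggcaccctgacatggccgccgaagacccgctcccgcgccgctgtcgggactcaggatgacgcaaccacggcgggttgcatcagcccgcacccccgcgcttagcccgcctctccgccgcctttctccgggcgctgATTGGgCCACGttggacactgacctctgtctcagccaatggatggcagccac
Dnajb9, chr12:44210069-44210318, minus strand: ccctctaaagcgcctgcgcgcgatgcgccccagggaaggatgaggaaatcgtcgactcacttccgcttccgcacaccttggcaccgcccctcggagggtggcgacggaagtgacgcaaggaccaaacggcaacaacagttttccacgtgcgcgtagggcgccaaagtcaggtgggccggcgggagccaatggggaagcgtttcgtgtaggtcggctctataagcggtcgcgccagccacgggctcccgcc
Serp1, chr3:58525885-58526134, minus strand: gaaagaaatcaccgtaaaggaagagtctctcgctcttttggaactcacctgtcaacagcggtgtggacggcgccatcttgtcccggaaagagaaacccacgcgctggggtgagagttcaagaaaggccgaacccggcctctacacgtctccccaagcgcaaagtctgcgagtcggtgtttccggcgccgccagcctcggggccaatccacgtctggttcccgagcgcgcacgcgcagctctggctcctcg

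ERSE was found once in Hspa5, at -65 to -47 from the start, and at 2 places in Hsp90b1, at -212 to -194 on the strand of the gene and at -107 to -89 on the other strand. ERSE-II was found in Herpud1 at -52 to -42. Of 32851 mouse promoters of the same length, 0.113% held ERSE on either strand and 0.0304% held ERSE-II. Of the 85 other genes of the ER stress lists with a promoter in the RefSeq table, 7 held ERSE and 0 held ERSE-II. The short motif CCACG, which is part of both elements, was found in 7 of 10 members, in 52 of the 85 other genes and in 28.3% of all promoters. The UPRE letters TGACGTGG, known as an XBP1 element, were found in 0 of 10 members, in 4 of the 85 other genes and in 0.563% of promoters. TGATGNAA, a motif of ATF4 and C/EBP factors, was found in Herpud1 at -112 to -105 on the other strand, in 9 of the 85 other genes and in 3.45% of promoters. A match describes these letters only and is no measure of binding.

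Each library held between 27100352 and 32880979 counted reads. Values of single mice are given as normalized counts, the counts scaled to a common library size, and levels of different genes are compared as FPKM, a unit that corrects for transcript length and sequencing depth. A gene was called where its Benjamini-Hochberg adjusted p over all genes tested was under 0.05 in edgeR's quasi-likelihood test. The 3 comparisons with WW share the same 4 WW mice and are not independent of each other. Cerebellum markers summed to 10999 in WW 21 and 14980 in NW 10 against 26954 to 33707 in the other 14 mice, and pituitary markers to 505 in NW 10 against 30.8 to 95.0 elsewhere. Endothelium markers summed to 6476 to 7283 in the 8 mice with ethanol and 7056 to 7595 in the 8 without. The medians for oligodendrocyte markers were 223360 for WW, 207254 for NW, 198510 for Water-Ethanol and 197072 for NE mice. The part of these differences in the members' values was not tested, other than by the cerebellum and olfactory bulb covariates given with the results. Of 5 blood markers, 4 were at 0 in every mouse. Because whole brain was measured, fewer cells of a type and less RNA per cell cannot be told apart.

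The members were well expressed in every group. On the FPKM scale over all 16 mice, Hsp90b1, the ER member of the Hsp90 family, had a mean of 215 ± 13.7 (SD), and Hspa5 (BiP), the main ER chaperone, had 203 ± 25.8. Hsp90b1 was the higher of this pair in 12 of 16 mice, so their order was within the spread. The transcription factor genes Atf4 and Xbp1 followed at 96.0 ± 3.04 and 49.5 ± 5.13 FPKM. Hspa5 was above Atf4, and Atf4 above Xbp1, in every mouse with no overlap of their ranges. Herpud1 had 38.9 ± 3.36 FPKM, Dnajb9 32.3 ± 2.96, Pdia4 29.3 ± 3.50, Serp1 27.2 ± 2.06 and Ddit3 23.3 ± 1.62. The ranges of neighbours overlapped all the way from Xbp1 down, although the higher gene of each pair was higher in at least 14 of 16 mice. Sdf2l1 was lowest, at 16.7 ± 2.74 FPKM, and was below Ddit3 in 16 of 16 mice. The mean of Hsp90b1 stood at the 98.2 percentile of the 13443 genes with a mean FPKM of 1 or more, and that of Sdf2l1 at the 62.2 percentile.

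**Figure D1:**
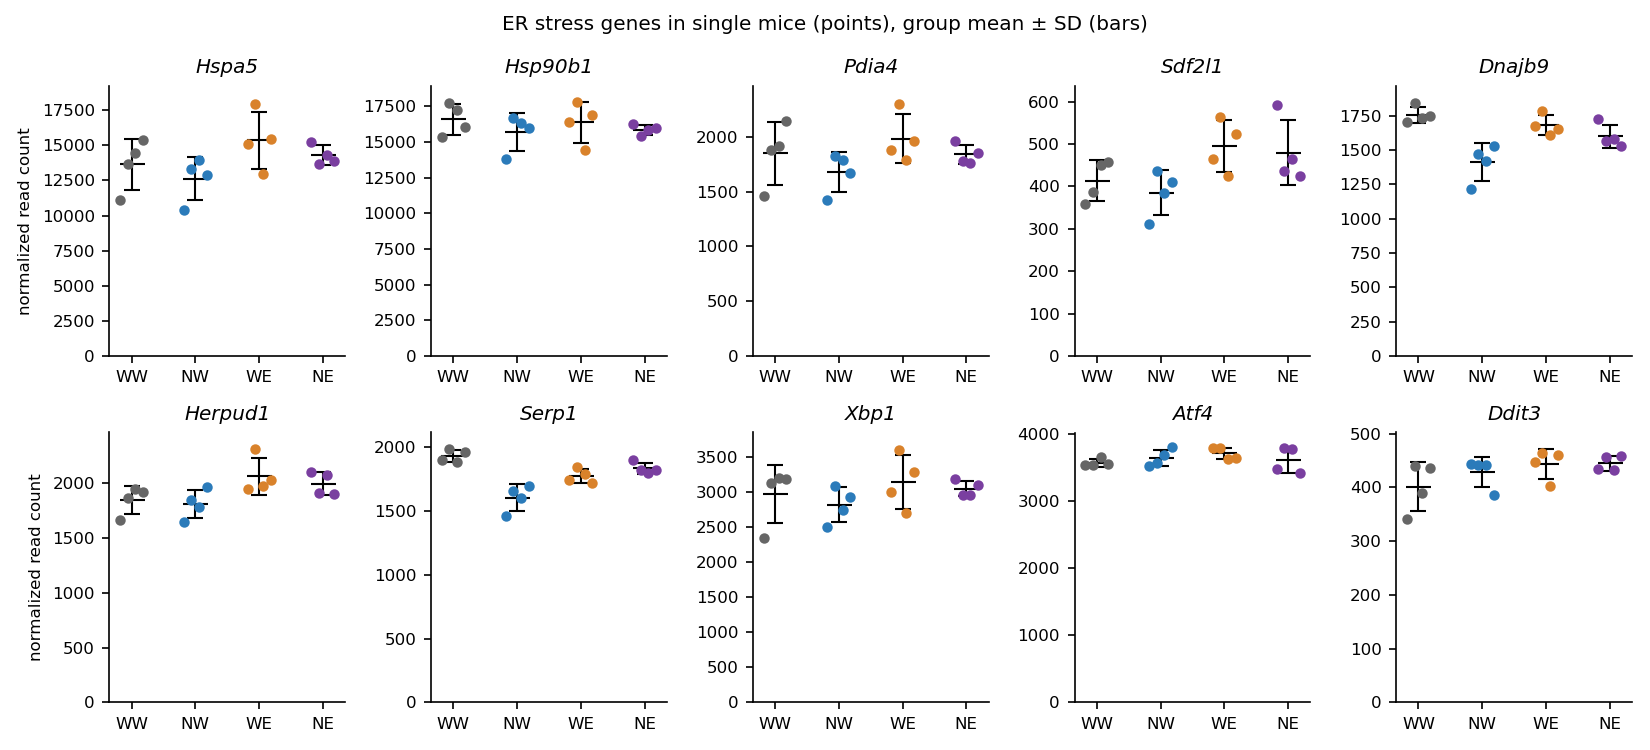
Normalized read counts (y axis, from 0) of the 10 genes in each of 16 mice, by drinking group (x axis, named by the first letters of the 2 drinks: water, nicotine or ethanol). Points are mice and bars are the group mean ± SD (n = 4): Dnajb9 and Serp1 of all 4 NW mice lie below all 4 WW mice, while the groups overlap widely for Hspa5, Hsp90b1 and Pdia4.

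The first question was what each drinking group did against water. No member was called in these comparisons by the edgeR fit of the 8 mice compared. In NW against WW, 0 of 10 members were called (0% of 15344 genes were). Of the 10, 2 had an unadjusted p under 0.05 (8.44% of genes did). DESeq2 called 2 members (0.624% of genes) and limma on log2(FPKM + 1) called 0 (0 of 16474 genes). In Water-Ethanol against WW, 0 of 10 members were called (0.457% of 15323 genes) and 3 had an unadjusted p under 0.05 (19.3% of genes). There DESeq2 called 0 members (2.9% of genes) and limma 0 (0 of 16457 genes). In NE against WW, 0 of 10 were called (0.313% of 15313 genes) and 1 had an unadjusted p under 0.05 (17.5%). Here DESeq2 called 0 members (2.55% of genes) and limma 0 (1 of 16443 genes). The median log2 fold change of the 10 members was -0.09 for NW mice, 0.09 for Water-Ethanol mice and 0.03 for NE mice, beside medians over all genes of 0.01, 0.002 and 0.004.

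The 2 members with an unadjusted p under 0.05 in NW mice were Dnajb9 and Serp1. Dnajb9 (ERdj4) is an ER co-chaperone of Hspa5 that takes part in degradation of misfolded proteins and holds Ire1 in check. Its gene lies at chr12:44205897-44210068 (GRCm38, minus strand). Its normalized counts were 1706, 1840, 1729 and 1744 in the WW mice and 1216, 1473, 1420 and 1530 in the NW mice. All 4 NW mice were below all 4 WW mice, an order seen in 4.19% of genes. Dnajb9 averaged 1410 ± 137 (SD, n = 4) normalized counts in NW mice against 1755 ± 59.0 in WW mice, and the log2 fold change was -0.31 (SE 0.0656, unadjusted p 0.00049, adjusted p 0.224 in edgeR). An exact permutation test over the 4 and 4 mice gave a two-sided p of 0.0286, the smallest that this design allows.

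In the ethanol-drinking groups the mean of Dnajb9 lay between these means. The Water-Ethanol mice had 1677, 1783, 1611 and 1654, a log2 fold change from WW of -0.06 (SE 0.0436, adjusted p 0.486 in edgeR). In the NE mice the counts were 1722, 1564, 1582 and 1525, with a log2 fold change from WW of -0.13 (SE 0.0471, unadjusted p 0.0158, adjusted p 0.186 in edgeR). For Dnajb9, 3 of the 4 NE mice, all but NE 2, were below every WW mouse, as was seen for at least 3 mice in 13.3% of genes. NE and Water-Ethanol differed by -0.07 on the log2 scale (adjusted p 0.838 in edgeR). Leaving out NW 7, the lowest mouse, gave -0.25 in NW against WW.

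Serp1 (Ramp4) is a small protein of the translocon, the channel through which new proteins enter the ER, and is known to protect membrane proteins under stress. Its gene spans chr3:58521971-58525884 (GRCm38, minus strand). The WW mice had normalized counts of 1895, 1986, 1881 and 1957, and the NW mice had 1456, 1655, 1601 and 1697. Again all 4 NW mice were below all 4 WW mice. Serp1 averaged 1602 ± 105 (n = 4) in NW mice against 1930 ± 50.0 in WW mice, and its log2 fold change was -0.27 (SE 0.0519, unadjusted p 0.000279, adjusted p 0.207 in edgeR, exact permutation p 0.0286). Leaving out NW 7 gave -0.23.

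The 4 Water-Ethanol mice had Serp1 counts of 1738, 1847, 1789 and 1717. They too were all below the WW mice, as in 5.6% of genes, with a log2 fold change of -0.12 (SE 0.0391, unadjusted p 0.0097, adjusted p 0.135 in edgeR). The NE mice had 1894, 1822, 1792 and 1818, of which only NE 2 reached the WW range, a log2 fold change of -0.07 (SE 0.0372, adjusted p 0.340 in edgeR). The largest difference from WW was thus that of the NW mice for both genes, and for Serp1 NE differed from Water-Ethanol by 0.05 (log2, SE 0.0390, adjusted p 0.875 in edgeR). Serp1 shares 64 exon bases with Eif2a on the opposite strand, where reads of the pair cannot be told apart if strand was not used in counting. Eif2a itself had a log2 fold change of -0.01 in NW against WW (adjusted p 0.981 in edgeR).

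Both genes have transcripts poor in G and C, 40.6% for Dnajb9 and 41.9% for Serp1, at the 7.33 and 11.3 percentile of the genes tested. A fit with an offset for GC content gave smaller NW differences, -0.21 for Dnajb9 and -0.18 for Serp1 on the log2 scale (adjusted p 0.583 for each in edgeR). Over all genes, 793 had an unadjusted p under 0.05 in edgeR with this offset, beside 1295 without it. With a shared estimate of spread from all 16 mice, edgeR called both (adjusted p 0.0274 for Dnajb9 and 0.0245 for Serp1), as DESeq2 did (0.00795 and 0.00455). The first of these fits called 0.718% of all genes and DESeq2 0.624%. Nearly all genes called were lower in NW mice, 109 of 112 in the first and 124 of 124 with DESeq2. With covariates for the markers of cerebellum and olfactory bulb, edgeR called 1.01% of genes, 149 of 157 of them lower in NW mice. Dnajb9 and Serp1 were also called in that fit (adjusted p 0.0326 and 0.0209). The call therefore turned on the model, and the direction did not in any alternative that was run.

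The other members in NW mice were within their spread. Hsp90b1, Hspa5, Pdia4, Sdf2l1, Herpud1 and Xbp1 had log2 fold changes between -0.14 and -0.03, and Atf4 and Ddit3 had 0.03 and 0.09. The smallest unadjusted p among these 8 in edgeR was 0.218, for Pdia4, a protein disulfide isomerase that forms and rearranges disulfide bonds.

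**Figure D2:**
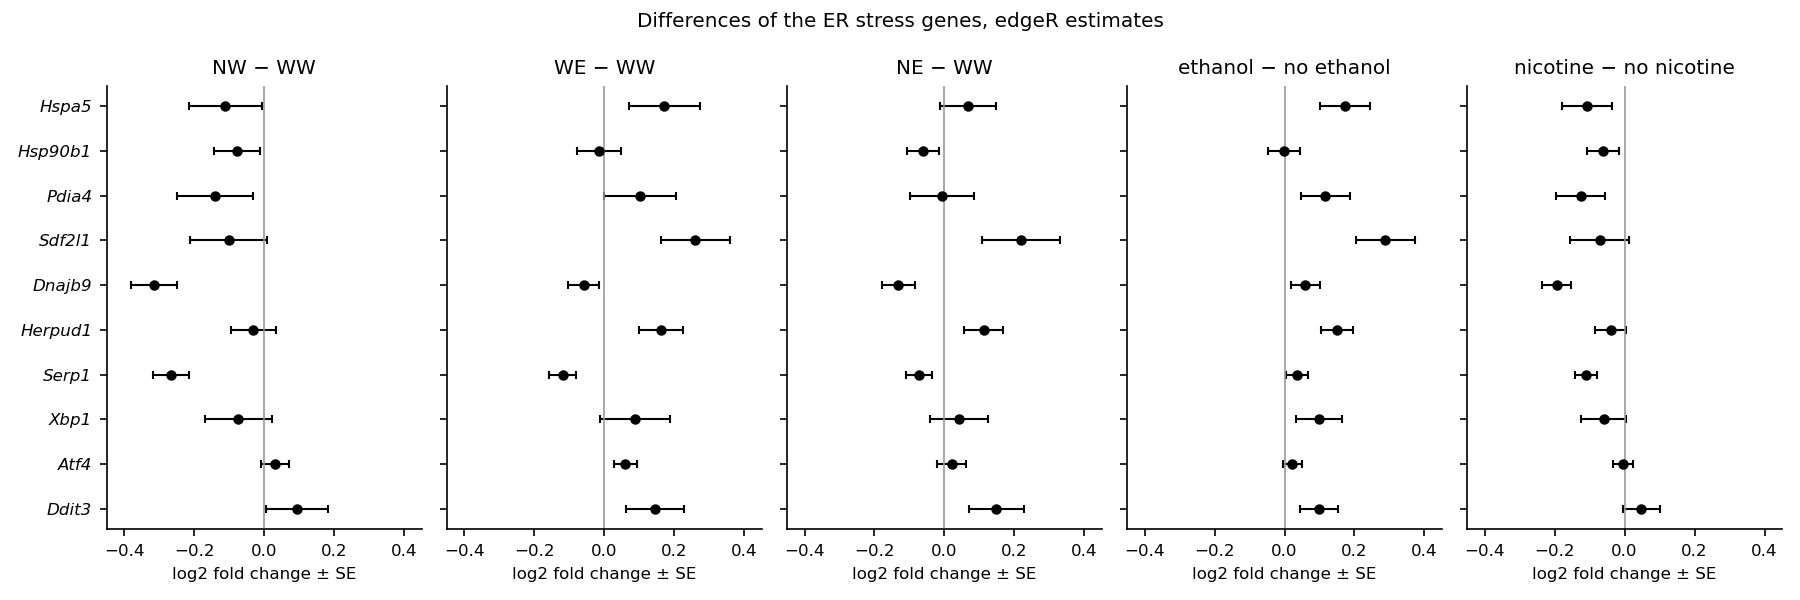
Log2 fold changes (x axis, edgeR, bars ± SE) of the 10 genes (y axis) in NW, Water-Ethanol and NE against WW (4 and 4 mice each), and for ethanol and nicotine over all 16 mice (8 and 8). Dnajb9 at -0.31 and Serp1 at -0.27 lie farthest left in NW, and Sdf2l1 at 0.29 lies farthest right in the ethanol panel.

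The second question was what ethanol did when NW mice served as the control of NE mice and WW mice as that of Water-Ethanol mice, so that 8 mice with ethanol were set against 8 without in 1 fit. No member was called by edgeR in this fit (4.5% of 15592 genes were), although 3 of 10 had an unadjusted p under 0.05 (22.9% of genes did). DESeq2 called 2 (5.25% of genes) and limma on log2(FPKM + 1) called 0 (649 of 16528 genes). The estimates were positive for 9 of 10 members, with a median log2 fold change of 0.10 beside 0.002 over all genes. Dnajb9 (0.06) and Serp1 (0.04) were among these only through the low NW mice, as both ethanol groups had means below WW. Against WW, 7 of 10 members were higher in Water-Ethanol mice and 6 of 10 in NE mice. The 3 with the smallest p were Sdf2l1, Herpud1 and Hspa5.

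Sdf2l1 is an ER protein found in complexes of Hspa5 with other chaperones (chr16:17130138-17132383, minus strand). Its normalized counts were 359, 388, 450 and 459 in WW and 311, 436, 384 and 410 in NW. They were 465, 564, 425 and 524 in Water-Ethanol and 593, 437, 465 and 424 in NE. In all, 5 of the 8 mice with ethanol were above all 8 without (a like excess of at least 5 mice was seen in 5.53% of genes), and the other 3 overlapped them. The log2 fold change was 0.29 (SE 0.0849, unadjusted p 0.00316, adjusted p 0.0589 in edgeR), and an exact permutation test over the 8 and 8 mice gave a two-sided p of 0.00746. Here and below, permutation over 8 and 8 mice shuffled all 16 without regard to the other drink, unlike the edgeR fit. Against WW alone, the log2 fold change was 0.26 (SE 0.0992, adjusted p 0.181) in Water-Ethanol and 0.22 (SE 0.112, adjusted p 0.343) in NE mice in edgeR. Leaving out NE 2, the highest mouse, gave 0.10 for NE against WW and 0.23 for ethanol over all groups. DESeq2 called Sdf2l1 (adjusted p 0.0208). So did edgeR when WW 21 and NW 10 were both left out (adjusted p 0.0489), a fit added after seeing the data. That fit called 1061 of 15667 genes. Of the 16 edgeR fits that left out 1 mouse, 2 called Sdf2l1 (adjusted p 0.0483 to 0.127 over the 16).

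Herpud1 is a membrane protein of the complex that moves misfolded proteins out of the ER for degradation (chr8:94386500-94395358, plus strand), and its promoter carried ERSE-II. The mice without ethanol had 1665, 1864, 1945 and 1918 (WW) and 1647, 1841, 1782 and 1960 (NW). The mice with ethanol had 1942, 2310, 1972 and 2028 (Water-Ethanol) and 2097, 1910, 2073 and 1897 (NE). Here too 5 of 8 mice with ethanol exceeded every mouse without it, and no mouse with ethanol was below the WW median. The log2 fold change was 0.15 (SE 0.0455, unadjusted p 0.00387, adjusted p 0.0642 in edgeR, exact permutation p 0.00435). DESeq2 gave an adjusted p of 0.0320. Against WW alone, Herpud1 had 0.16 (SE 0.0626, adjusted p 0.189) in Water-Ethanol and 0.11 (SE 0.0555, adjusted p 0.326) in NE mice in edgeR, and these were 0.10 without Water-Ethanol mouse 14 and 0.07 without WW 18. The estimate over all groups was 0.12 without Water-Ethanol mouse 14.

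Hspa5 is the chaperone that binds unfolded chains and, when free of them, the 3 stress sensors (chr2:34772090-34776529, plus strand). Its counts were 11127, 13686, 14419 and 15390 in WW and 10409, 13306, 13957 and 12869 in NW. Those of the Water-Ethanol mice were 15058, 17933, 12927 and 15484, and those of the NE mice 15261, 13686, 14325 and 13867. The groups overlapped widely, and only Water-Ethanol mice 14 and 16 were above all 8 mice without ethanol. The log2 fold change was 0.17 (SE 0.0712, unadjusted p 0.0255, adjusted p 0.156 in edgeR, exact permutation p 0.0550). It was 0.13 without WW 18, one of the lowest mice, and 0.24 with the scores of cerebellum and olfactory bulb markers as covariates (adjusted p 0.0390 in edgeR, in a fit that called 5.02% of genes).

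Of the remaining chaperones and enzymes, Pdia4 (chr6:47796141-47813512, minus strand) ranged from 1421 to 2302 normalized counts over the 16 mice and had an ethanol estimate of 0.12 (SE 0.0700, adjusted p 0.328 in edgeR) on the log2 scale and Hsp90b1 one of -0.001 (SE 0.0455, adjusted p 0.992). Hsp90b1 (chr10:86690841-86705444, minus strand), whose promoter held ERSE at 2 places, thus gave no detectable difference, and its 8 mice with ethanol ranged from 14436 to 17825 beside 13781 to 17716 in those without. Xbp1 (chr11:5520641-5525993) ranged from 2347 to 3602 and Atf4 (chr15:80255184-80257545) from 3423 to 3807 normalized counts. In the ethanol effect the transcription factor genes gave, on the log2 scale, Xbp1 0.10 (SE 0.0653), Atf4 0.02 (SE 0.0281) and Ddit3 0.10 (SE 0.0536), with adjusted p of 0.376, 0.660 and 0.280 in edgeR. Leaving out WW 18 gave 0.05 for Xbp1, 0.06 for Ddit3 and 0.07 for Pdia4, and leaving out NE 4 gave 0.01 for Atf4. The total count of Xbp1 does not separate its spliced and unspliced mRNA, and Atf4 is controlled largely in translation, so neither count measures the active factor.

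Ddit3, the stress gene linked to cell death, lies at chr10:127290793-127296288 and had the lowest mean normalized count of the members, 430. Its counts were 342, 439, 390 and 435 in WW and 444, 442, 442 and 386 in NW. Water-Ethanol mice had 446, 465, 403 and 460, and NE mice 435, 456, 432 and 459. WW 18 was the lowest of the 16 mice. Of the 8 mice with ethanol, 5 were above all 8 without, as at least 5 were in 5.53% of genes. The lowest of these 5 had 446 beside 444 in the highest mouse without. An exact permutation test over the 8 and 8 mice gave a two-sided p of 0.0712. Ddit3 shares 68 exon bases with Mars on the opposite strand. Mars had a log2 fold change of 0.12 in NW against WW (unadjusted p 0.0532, adjusted p 0.597 in edgeR), beside 0.09 for Ddit3, and -0.02 for ethanol (adjusted p 0.740).

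The third question was whether nicotine changed the members and whether its estimate differed with ethanol. Over 8 mice with nicotine and 8 without, edgeR called 0 of 10 members (0% of 15592 genes), and 2 had an unadjusted p under 0.05 (10.3%). DESeq2 called 1 (0.495% of genes) and limma 0 (0 of 16528 genes). Dnajb9 had a log2 fold change of -0.19 (SE 0.0423, unadjusted p 0.000213, adjusted p 0.170 in edgeR, exact permutation p 0.00124). In all, 7 of the 8 mice with nicotine were below all 8 without, an order that at least 7 mice showed in 0.391% of genes, and NE 2 was the exception. Serp1 had -0.11 (SE 0.0319, unadjusted p 0.00272, adjusted p 0.248 in edgeR, exact permutation p 0.0446), and its 4 mice below all others were the NW mice. With the GC offset, the Dnajb9 estimate was -0.13 (adjusted p 0.390 in edgeR) and the Serp1 estimate -0.06 (adjusted p 0.899). DESeq2 called Dnajb9 (adjusted p 0.0102). Of the 101 genes that DESeq2 called for nicotine, 98 were lower with it.

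The interaction, the nicotine difference with ethanol minus that without, was called for 0 of 10 members by edgeR (0% of genes). Its unadjusted p was under 0.05 for 2 (6.76% of genes). DESeq2 called 1 (0.0049% of genes) and limma 0 (0 of 16528 genes). Serp1 had an interaction of 0.32 on the log2 scale (SE 0.0639, unadjusted p 9.81e-05, adjusted p 0.577 in edgeR and 0.0496 in DESeq2) and Dnajb9 one of 0.24 (SE 0.0847, unadjusted p 0.00988, adjusted p 0.678 in edgeR). For both, NW was lower than WW while NE and Water-Ethanol differed less, but these differences did not pass the correction in edgeR. Between NE and Water-Ethanol, 0 of 10 members were called (0% of 15319 genes) and 0 had an unadjusted p under 0.05 (5.8%). Neither DESeq2 (0.0101% of genes) nor limma (1 of 16452 genes) called any member.

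**Figure D3:**
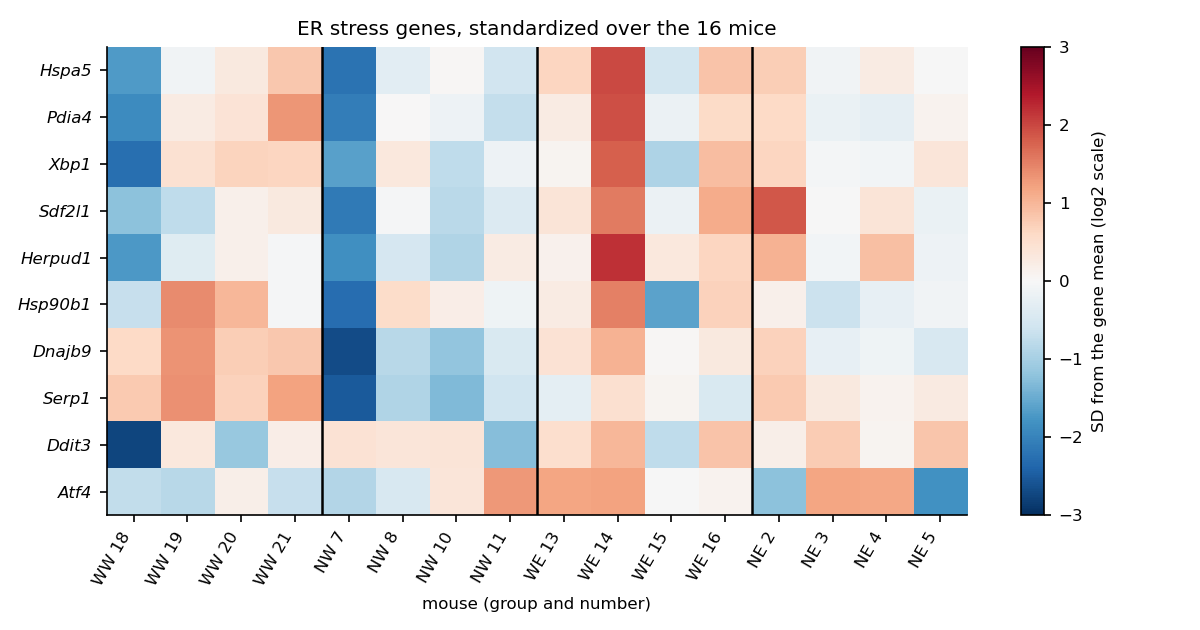
Each gene (rows) in each mouse (columns, grouped WW, NW, Water-Ethanol and NE by black lines), in SD from that gene's mean over the 16 mice on the log2 scale (colour, red above and blue below). NW 7 is blue in all but Ddit3, Water-Ethanol mouse 14 is red throughout, and WW 18 is blue in the Hspa5 block but not in Dnajb9 and Serp1.

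Levels varied between mice of 1 group, and several members varied together across mice. Water-Ethanol mouse 14 had the highest count of all 16 mice for 6 of 10 members and was among the top 2 for 9. NW 7 had the lowest for 7 members and WW 18 was among the bottom 2 for 6. NW 7 also had the lowest sum of neuron markers, 167676 beside 171685 to 192039 in the other mice. Its sum of blood markers was the highest, 177 beside 66.5 to 135, with 4 of the 5 markers at 0 in every mouse. The part of these differences in the members' values was not tested. The coefficient of variation over the 16 mice was 16.2% for Sdf2l1, 12.6% for Hspa5 and 11.8% for Pdia4, and 3.41% for Atf4.

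Of 15590 genes ranked by the correlation of their log2 levels with Hspa5 over the 16 mice, Pdia4 was first (Pearson r 0.955, Spearman rho 0.879). Xbp1 (r 0.896), Sdf2l1 (0.881) and Herpud1 (0.861) were also among the first 9. The 5 genes outside the 10 members with the highest r were Mlec (0.953), a lectin of newly made glycoproteins, Pdia6 (0.947), a disulfide isomerase, Manf (0.918), a secreted ER stress factor, Hyou1 (0.862), a large ER chaperone, and Bcl2 (0.833), an inhibitor of cell death. With the group means removed, r stayed between 0.80 and 0.97 for these 5 genes. These values describe 16 points that share library depth and group, and no test was made on them. Hsp90b1 (r 0.737, rank 47), Dnajb9 (0.614, rank 264), Ddit3 (0.510, rank 823), Serp1 (0.448, rank 1326) and Atf4 (0.317, rank 2817) followed the Hspa5 pattern less.

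Dnajb9 and Serp1 had r 0.913 (rho 0.847) with each other over the 16 mice and 0.905 after the group means were removed. With the group means removed, Dnajb9 also had r 0.760 with Sdf2l1, 0.754 with Hsp90b1, 0.744 with Herpud1 and 0.677 with Hspa5. Dnajb9 and Serp1 had low correlations with Ddit3 (r -0.15 for Dnajb9 and -0.20 for Serp1) and Atf4 (0.08 and -0.12). NW 7 was the lowest mouse for Dnajb9, Serp1 and Hspa5 alike. WW 18 was lowest or next to lowest for Hspa5, Pdia4, Xbp1, Herpud1, Sdf2l1 and Ddit3, but at 1706 for Dnajb9 and 1895 for Serp1 it was above every NW mouse.

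**Figure D4:**
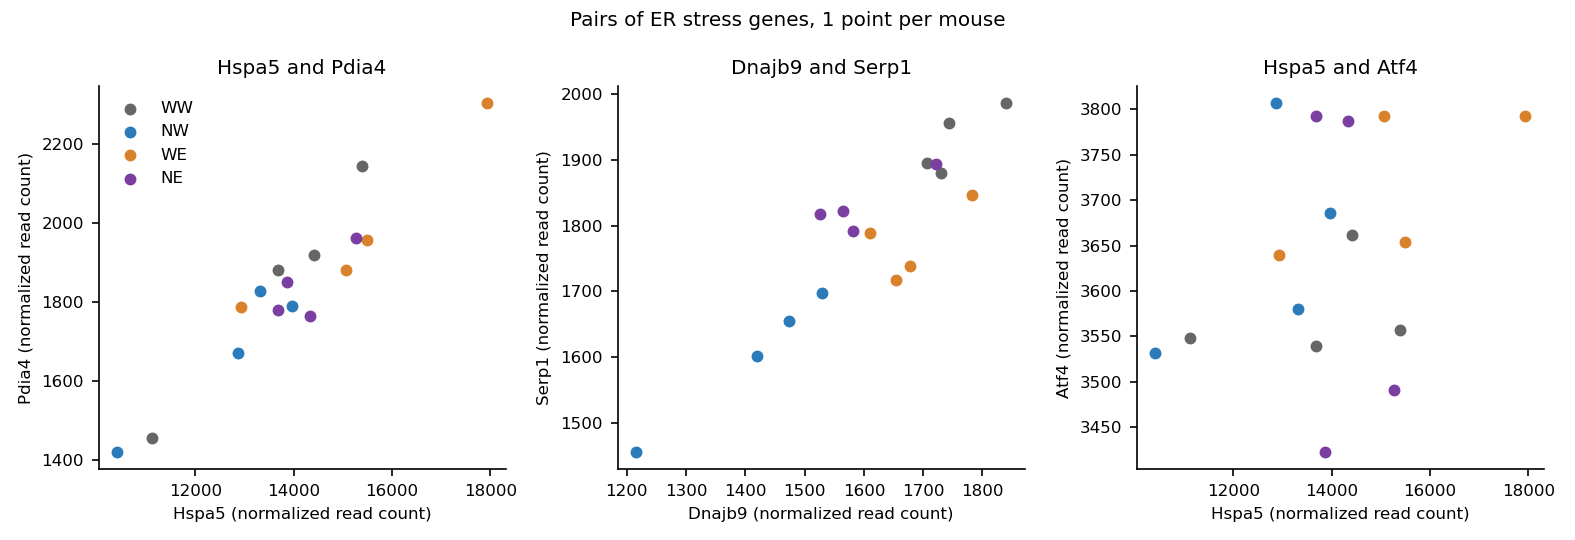
Normalized read counts of 3 pairs of genes, 1 point per mouse, coloured by group. Hspa5 and Pdia4 (r 0.955) and Dnajb9 and Serp1 (r 0.913) lie along lines, the second with the NW mice at its lower end, and Hspa5 and Atf4 (r 0.317) are scattered.

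The rest of the pathway was covered by 106 other genes in 7 lists, all of which were tested. By edgeR, 5 of the 106 were called in the ethanol effect, a share close to the 4.5% of all genes, and 0 in each other comparison. All 5 were higher, as were 458 of the 702 genes called in all. The median log2 fold change of the 106 genes was 0.01 for ethanol. Txndc11, a thioredoxin-domain protein of the ER, had 0.14 (SE 0.0328, adjusted p 0.0201 in edgeR), with 882 ± 34.3 (n = 8) normalized counts with ethanol and 799 ± 29.3 without. The ER-associated degradation genes Ube2g2, a ubiquitin-conjugating enzyme, and Syvn1 (Hrd1), the ubiquitin ligase of that pathway, had 0.15 (adjusted p 0.0319 in edgeR) and 0.13 (0.0373). Bbc3 (Puma) and Bcl2l11 (Bim), both promoters of cell death, had 0.30 (adjusted p 0.0327 in edgeR) and 0.24 (0.0432). Of the 8 mice with ethanol, 7 were above all 8 without for Txndc11 and for Bbc3 (at least 7 were in 1.4% of all genes), and 6 were for Ube2g2 and 5 for Bcl2l11 (at least 5 in 5.53%). For Syvn1 only 4 were, an order whose share over all genes was not counted.

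By list, the calls were 1 of 24 ER chaperones and folding enzymes, 2 of 18 degradation genes, 2 of 14 other stress genes, and 0 among 9 sensors and proteases, 6 eIF2 kinases and phosphatase subunits, 17 ATF4 and CHOP targets and 18 translocon genes. At an unadjusted p under 0.05 in edgeR, 16 of the 106 genes were higher with ethanol and 7 lower, a share no larger than the 22.9% of all genes. In the lists with no call, the smallest p belonged to Ppp1r15a (Gadd34), a phosphatase subunit that reverses the Perk signal (log2 0.17, adjusted p 0.0795 in edgeR), to Stc2, a secreted stanniocalcin (0.37, 0.117), to Ssr3, a subunit of the translocon-associated complex (0.08, 0.118), and to Ern1 (0.13, 0.236). Also among the 2 smallest of their lists were Dnajc3, a co-chaperone of Hspa5 (0.16, adjusted p 0.0808), Creb3l1 (0.13, 0.255), Ssr4 (-0.09, 0.259), Eif2s1, the eIF2 alpha subunit (-0.10, 0.173), and Phgdh, the first enzyme of serine synthesis (-0.09, 0.155), none of which passed edgeR's adjusted threshold.

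**Figure D5:**
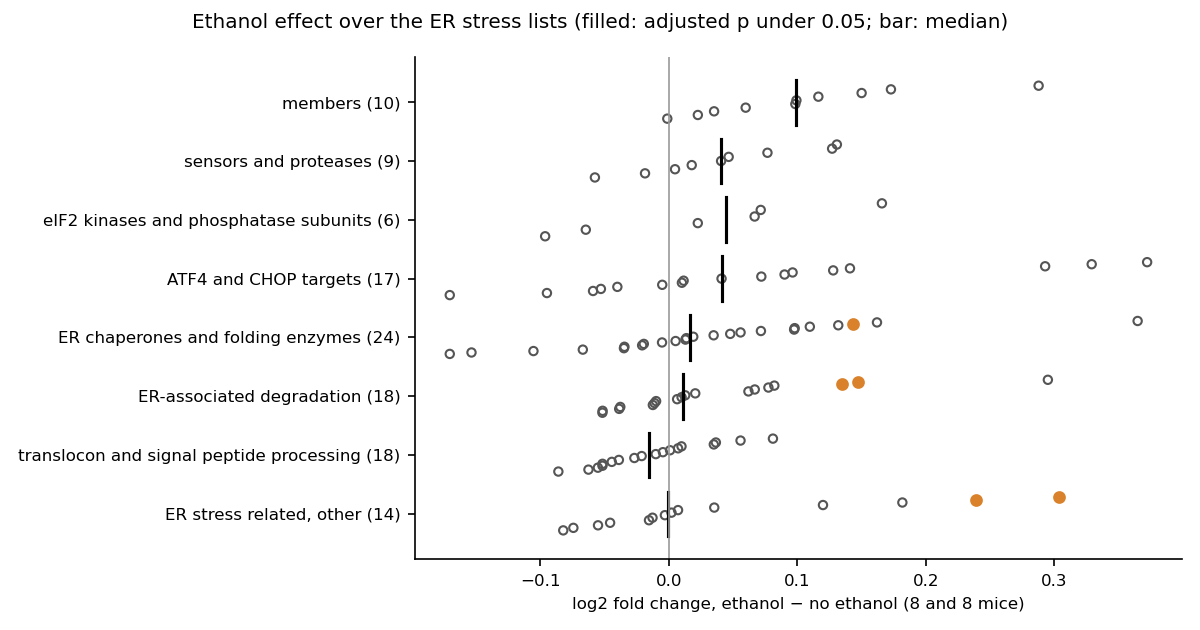
Log2 fold change with ethanol (x axis, 8 mice with against 8 without) of each gene of the 10 members and the 7 other lists (rows, number of genes in brackets). Each circle is a gene, filled where the adjusted p in edgeR was under 0.05, and the bar is the median, which is 0.10 for the members.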

How the data were processed

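RNA from whole brain with cerebellum was sequenced on 1 library per mouse. Per the labels and the study's methods, the authors split reads with bcl2fastq 1.8.4, trimmed them with Trimmomatic 0.32 and aligned them to GRCm38 with TopHat2. The deposited table of counts holds raw reads per gene; the counting program and its strand setting are not given in the sources used here, and the labels and methods differ on whether the kit kept strand. The deposited FPKM table was made by the authors with Cufflinks and Cuffdiff.

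The 10 members and the lists were chosen with earlier results of these data known. Counts were tested with edgeR 4.0.16 (TMM, filterByExpr, quasi-likelihood F test, Benjamini-Hochberg), on the 8 mice compared for 2-group comparisons and on all 16 for the ethanol effect, nicotine effect and interaction. SE was the log2 fold change divided by the root of F. Normalized counts were scaled to the mean effective library size. As an alternative, limma 3.58.1 was run on log2(FPKM + 1) with and without a filter at 0.1, and on log2(FPKM + 0.1) with that filter. Alternatives on counts were DESeq2 1.42.0, size-factor normalization, no count filter and a fit of all 16 mice. The others were marker scores as covariates, a GC offset and leaving out each mouse. Leaving out WW 21 and NW 10 together was added after seeing the data. Other genes named were those called, the 2 with the smallest ethanol p in each list and the 5 most like Hspa5. The counts table has 1215 rows with no Ensembl identifier, which were kept under their symbols. No 2 libraries held identical counts. The edgeR steps were tested on simulated data with 200 changed genes. Positions are from the count table (GRCm38) and promoters from RefSeq (GRCm38.p6). The RefSeq start of Pdia4 was not found in the transcript used to check strand. Each mouse is a separate animal, and cage, batch and drinking amount per mouse were not used here.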

Additional observations from a re-analysis of the deposited data

Results flagged for a closer look

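Among the 40 sets of 4 mice (10 members in 4 groups), 3 held a mouse far from the other 3, where chance gives about 1 in 20. Ddit3 had 386 normalized counts in NW 11 beside 442 to 444 in the other NW mice. Xbp1 had 2347 in WW 18 beside 3125 to 3202, and Atf4 had 3662 in WW 20 beside 3539 to 3557. The nicotine difference also differed with ethanol at an unadjusted p under 0.05 in edgeR for Serp1 (interaction 0.32 on the log2 scale, adjusted p 0.577) and Dnajb9 (0.24, adjusted p 0.678), and neither passed the correction.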

How the results depend on the processing

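No paired analysis was possible because the replicate numbers are animal numbers that no 2 groups share. The members had 311 to 17933 normalized counts per mouse, so that counting error weighed most on Sdf2l1 and Ddit3. The results on members called moved as follows from 0 in edgeR: in NW against WW to 2 (Dnajb9 and Serp1) with DESeq2, with the fit of all 16 mice and with marker covariates; in the ethanol effect to 2 with DESeq2 (Sdf2l1 and Herpud1) and with covariates (Sdf2l1 and Hspa5), and to 1 (Sdf2l1) without both WW 21 and NW 10; in the nicotine effect to 1 (Dnajb9) and in the interaction to 1 (Serp1) with DESeq2. Leaving out 1 mouse gave 0 to 1 members in the ethanol effect (1 without WW 21 or NE 3, Sdf2l1, or NW 11, Herpud1) and 0 to 1 in the nicotine effect (Dnajb9 without NW 11). The cause was not tested.

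Over all genes, edgeR called 0 in NW, 70 in Water-Ethanol, 48 in NE and 702 for ethanol, against 0 to 157, 0 to 576, 1 to 507 and 550 to 1073 in alternatives with all mice. Nicotine went from 0 to at most 101, the interaction from 0 to 1 and NE against Water-Ethanol from 0 to 2. Leaving out 1 mouse gave 0 to 797 in Water-Ethanol and 0 to 283 in NE, both highest without WW 21, 280 to 899 for ethanol and 0 to 49 for nicotine.

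Of 600 estimates for single members with all mice, 567 kept direction and call, 12 gained a call, 0 lost one and 21 changed sign. Of 800 that left out 1 mouse, 735, 4, 0 and 61 did. Of 60 without both WW 21 and NW 10, 54, 1, 0 and 5 did. No estimate that changed sign was called in either direction. With the GC offset, in log2 units, they were Hsp90b1 0.00262 and Atf4 -0.0179 in NW, Hsp90b1 0.0196 in Water-Ethanol, Pdia4 0.00503 and Atf4 -0.0275 in NE, Hsp90b1 0.00463 for ethanol, and Hspa5 -0.0148, Hsp90b1 -0.0286 and Herpud1 0.00787 for the interaction. With covariates they were Hsp90b1 0.00828 in Water-Ethanol and 0.0130 for ethanol, Pdia4 0.0890 in NE, and Hspa5 -0.0530, Pdia4 -0.0286 and Xbp1 -0.0122 for the interaction. On FPKM with limma, Pdia4 in NE was 0.00891 (0.00961 with a pseudocount of 0.1) and Hsp90b1 for ethanol 0.00576 (0.00578). Without both WW 21 and NW 10, Pdia4 in NE was 0.0699, Hsp90b1 for ethanol 0.000255, and the interactions of Hspa5, Pdia4 and Xbp1 were -0.00780, -0.0161 and -0.0236.

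Leaving out 1 mouse, the ranges that crossed 0 were these. In NW, Herpud1 -0.0755 to 0.00950. In Water-Ethanol, Hsp90b1 -0.0600 to 0.0393 and Xbp1 -0.00855 to 0.154. In NE, Hspa5 -0.0189 to 0.128, Pdia4 -0.104 to 0.0699, Atf4 -0.00287 to 0.0444 and Xbp1 -0.0551 to 0.0806. In NE against Water-Ethanol, Herpud1 -0.0799 to 0.00754, Ddit3 -0.0429 to 0.0251, Xbp1 -0.117 to 0.0229 and Sdf2l1 -0.165 to 0.0271. For ethanol, Hsp90b1 -0.0290 to 0.0270. For nicotine, Atf4 -0.0141 to 0.00966. For the interaction, Hspa5 -0.0750 to 0.0915, Hsp90b1 -0.0243 to 0.0752, Pdia4 -0.0428 to 0.130, Herpud1 -0.0596 to 0.0394, Xbp1 -0.0413 to 0.122 and Sdf2l1 -0.0614 to 0.128.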
